A study of Mus musculus with 23 samples.

Results

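*Longissimus dorsi*, the long extensor muscle beside the spine, was compared between mice that had stayed on the ground in different housing. The arrays were chosen by their titles, 5 for animal facility controls (FC) and 5 for ground habitat controls (BG), which is 10 of the 23 arrays of the series, and all 22626 probe sets were measured on each. The mice were adult males of the strain written C57BL/N6 in the study's methods, assigned to groups at random. FC mice lived in a standard animal facility. BG mice lived under normal gravity in a copy of the habitat of the Bion M1 biosatellite for 30 days, the length of the flight, and are the study's control for the habitat itself. The remaining arrays hold the same muscle of 5 flown mice (BF) and the tongue of 3 BF, 3 BG and 2 FC mice, and they are used here only beside the FC and BG values. Each array of *longissimus dorsi* comes from 1 mouse, none of these 10 mice had flown, and the sources state no drug or altered gene for any group. The hour of dissection and the feed of either ground group are not given in the sources used here.

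Skeletal muscle is the largest site of glucose uptake after a meal and runs a circadian clock of its own. In that clock the proteins CLOCK and BMAL1 bind short DNA motifs called E-boxes and drive the Per, Cry and Rev-erb genes, whose products in turn repress them. Muscle also tunes genes of the Z-disc, the membrane and protein turnover to its load, its feeding state and glucocorticoid hormones. Levels are given as log2 expression, where a step of 1 stands for 2-fold, and every difference is FC minus BG. An adjusted p is that of limma's moderated test after Benjamini-Hochberg correction for the 22626 probe sets, and a probe set passed where it was under 0.05. Where a probe set also differed by more than 2-fold it is referred to as called. Genes with several probe sets are counted by the brightest of them, and an array is named by its group and number, as in FC2.

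The tissue matched its label by its fast fibre genes. Muscle creatine kinase Ckm, skeletal actin Acta1 and the fast IIB myosin Myh4 were among the brightest signals on every array, at 14.23 to 14.30, 14.19 to 14.41 and 13.99 to 14.22 in FC mice and at 14.22 to 14.30, 14.24 to 14.34 and 13.90 to 14.10 in BG mice. Some arrays stood apart in slow fibre, immune or tendon transcripts. Myh7, the slow myosin heavy chain, measured 12.31, 9.07, 11.65, 11.77 and 12.29 in FC1 to FC5, against 10.36, 11.76, 11.38, 10.98 and 13.05 in BG1 to BG5. FC2 was thus low in slow fibre transcripts, and the troponins Tnnc1 (9.21 in FC2 against 12.02 to 13.17 in BG mice) and Tnni1 (7.94 in FC2 against 10.84 to 11.95 in BG mice) were low on it too. BG5 was high in immune transcripts. Its mean over 33 macrophage markers was 9.08, where the other BG arrays had 7.12 to 7.65 and the FC arrays had 6.79 to 7.55, and its mean over 14 mast cell markers was 6.16, where the others of both groups had 4.96 to 5.47. Tendon transcripts were high on FC1 and FC3, with list means of 9.21 and 9.30, against 6.69 to 8.37 on the BG arrays. FC2 lay inside the BG range at 7.89, and FC4 and FC5 had 6.51 and 6.44. In bulk muscle, fewer cells of a type and less RNA per cell cannot be told apart. BG5 also lay farthest from its group over all probe sets, with an SD of 0.356 around the group mean, against 0.159 to 0.254 for the other 9 arrays.

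**Figure D1:**
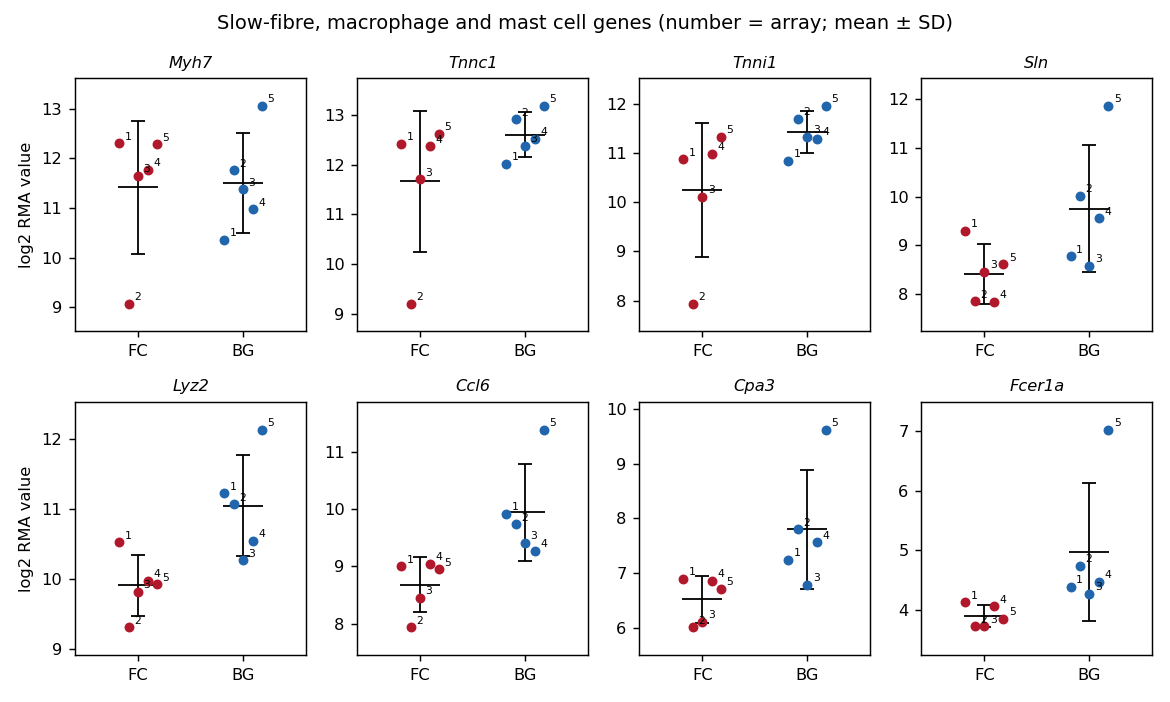
Log2 expression of 8 genes of slow fibres (Myh7, Tnnc1, Tnni1, Sln), macrophages (Lyz2, Ccl6) and mast cells (Cpa3, Fcer1a) in the 5 FC and 5 BG arrays of *longissimus dorsi*. Dots are arrays, the numbers beside them are array numbers, and bars are the group mean ± SD. FC2 is the lowest FC array for Myh7 at 9.07, and BG5 is the highest array for Fcer1a at 7.02.

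The transcriptomes of FC and BG muscle differed mostly in small steps, and more probe sets were higher than lower in FC mice. Of the 22626 probe sets 2025 (8.95%) passed the adjusted p, 1537 of them higher and 488 lower in FC mice. Of these, 1567 differed by less than 1.5-fold. Past 2-fold there were 46 (0.203%), 24 higher and 22 lower in FC mice. The FC and BG ranges did not overlap in 1303 probe sets (5.76% of all), and in 24 of the 46. The 40 called probe sets that name a single gene stand for 18 genes higher and 17 genes lower in FC mice. Counted by gene, 1000 of 12393 (8.07%) were higher and 272 (2.19%) lower in FC mice. These shares are the background for each gene group that follows. Among the 7083 genes with a brighter probe set, fitted without the dimmer ones, 16.5% were higher and 3.95% lower. Lists of bright genes are to be read beside these larger shares as well. Over all 12393 genes, 11.8% were higher and 6.02% lower without BG5. Without FC2, FC3, BG1 or BG4 these shares were 4.16% to 4.49% higher and 0.888% to 1.23% lower. The upper quartile of the deposited values ran from 8.262 to 8.365 on the FC arrays and from 8.187 to 8.307 on the BG arrays. Whether this took part in the excess of higher probe sets was not tested. With quantile normalization repeated within each muscle 1109 probe sets passed as higher and 593 as lower, and the called probe sets were 17 higher and 26 lower. The 488 lower ones became 1288 without BG5, 258, 215, 184, 279 and 246 without FC2, FC3, BG1, BG2 and BG4 in that order, and 1004 with array weights. The 2025 became 3661 without BG5, and 1082, 1004, 1013 and 1104 without FC2, FC3, BG1 and BG4 in that order. The 22 lower ones became 14 without FC2 or BG1 and 38 without BG3, and the 24 higher ones 44 without BG5.

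**Figure D2:**
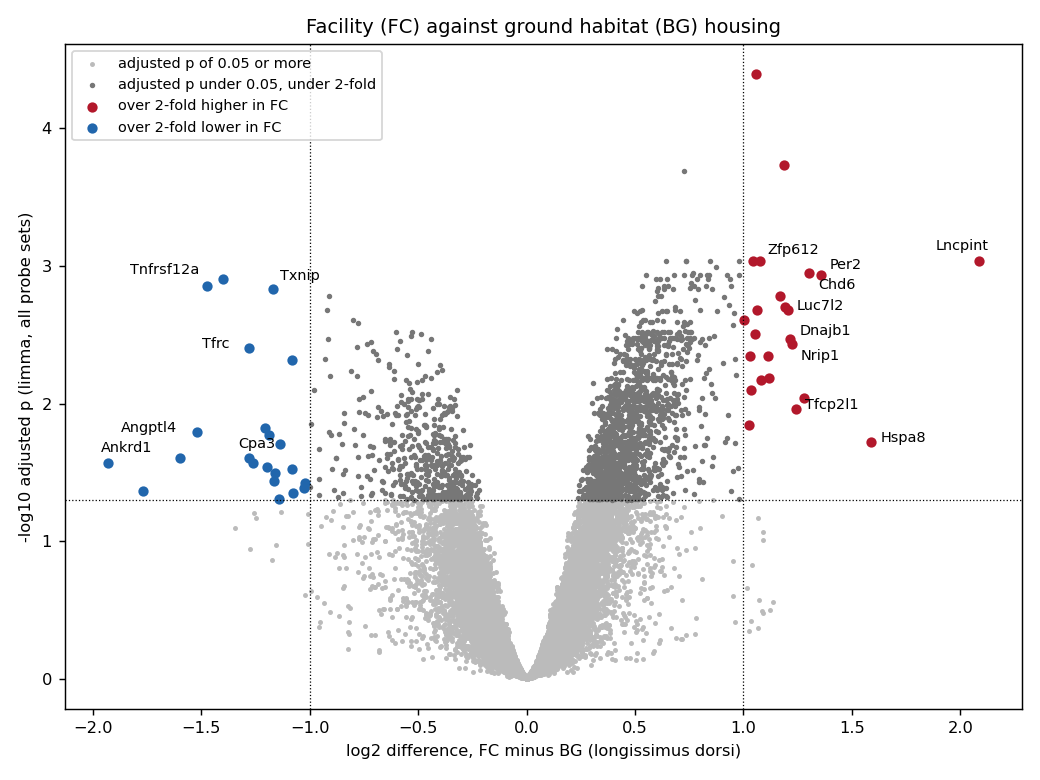
Difference in log2 expression, FC minus BG, of each of the 22626 probe sets in *longissimus dorsi* (x axis) against −log10 of its adjusted p (y axis). Dotted lines mark 2-fold and an adjusted p of 0.05, and points past both are the 46 called probe sets, 24 to the right and 22 to the left.

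Per1, Per2 and Cry2, of the 5 period and cryptochrome genes of the clock, were higher in FC mice, and Per3 and Cry1 did not pass. Per2 and Per1, which encode repressors of CLOCK and BMAL1, carried clear steps. Per2 measured 7.97, 8.47, 8.65, 8.69 and 7.87 in FC1 to FC5, against 6.52, 6.70, 7.43, 7.40 and 6.81 in BG1 to BG5. No BG array reached the lowest FC array, and the difference was 1.36 (SE 0.20, adjusted p = 0.00115). Per1 measured 8.77, 9.04, 9.27, 8.87 and 8.77 in FC1 to FC5, against 7.80, 8.37, 8.69, 8.20 and 7.45 in BG1 to BG5, a difference of 0.84 (SE 0.17, adjusted p = 0.00559). Cry2, the partner of the PER proteins in repression, measured 7.30, 7.81, 7.70, 7.30 and 7.21 in FC1 to FC5, against 6.35, 6.39, 6.64, 6.38 and 6.65 in BG1 to BG5. All 5 FC arrays were above all 5 BG arrays for both Per1 and Cry2, and Cry2 differed by 0.98 (SE 0.15, adjusted p = 0.00115). Per3 measured 7.59, 7.65, 8.27, 8.19 and 8.15 in FC1 to FC5, against 6.09, 7.29, 7.52, 7.65 and 7.30 in BG1 to BG5 and did not pass (0.80, adjusted p = 0.051). None of its 3 probe sets passed, and they ranged from -0.14 to 0.80. Of the 12 measured genes of the core loop 5 were higher and 0 lower in FC mice, with a median difference of 0.50 where the median over all genes was near 0. Besides Per1, Per2 and Cry2 these were Csnk1e and Csnk1d, kinases that mark PER proteins for degradation, at 0.54 (adjusted p = 0.00906) and 0.54 (adjusted p = 0.0191). Csnk1d did not pass without BG1 (adjusted p = 0.0589) or BG4 (adjusted p = 0.0628).

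Of the genes driven by the clock, 3 of 7 measured were higher in FC mice and 1 was lower. Hlf and Tef encode PAR bZIP transcription factors, which carry clock timing to metabolic genes. Hlf measured 8.05, 8.17, 8.22, 7.70 and 7.93 in FC1 to FC5, against 6.54, 7.11, 7.36, 7.11 and 7.22 in BG1 to BG5, a difference of 0.94 (SE 0.15, adjusted p = 0.00141). Tef measured 10.63, 10.97, 10.79, 10.68 and 10.53 in FC1 to FC5, against 9.77, 10.04, 10.51, 10.28 and 10.27 in BG1 to BG5, a difference of 0.55 (SE 0.14, adjusted p = 0.0169) that did not pass without FC2 (adjusted p = 0.0539) or BG1 (adjusted p = 0.0583). The ranges of both genes did not overlap between the groups. Their relative Dbp measured 9.63, 9.38, 9.71, 9.34 and 8.69 in FC1 to FC5, against 6.43, 8.60, 8.70, 8.90 and 8.67 in BG1 to BG5. Here BG1 alone was below 7, the difference was 1.09 (SE 0.40, adjusted p = 0.0862), and without BG1 it was 0.63 (adjusted p = 0.253). Rora, an activator of Arntl, was higher at 0.55 (adjusted p = 0.0344) and did not pass without FC1, FC2, FC3, BG1, BG3 or BG4 (adjusted p from 0.0573 to 0.107). Nr1d1, which encodes the repressor REV-ERB alpha, measured 7.14, 6.88, 7.03, 6.23 and 6.24 in FC1 to FC5, against 7.55, 8.07, 6.87, 7.14 and 8.24 in BG1 to BG5. It was lower in FC mice, at -0.87 (SE 0.27, adjusted p = 0.0475), the ranges overlapped, and it did not pass without FC2, FC3, FC4, FC5, BG1, BG2, BG4 or BG5 (adjusted p from 0.051 to 0.118). Arntl, which encodes BMAL1, measured 6.96, 7.66, 7.43, 7.59 and 8.32 in FC1 to FC5, against 8.57, 7.91, 7.38, 7.24 and 8.02 in BG1 to BG5, with overlapping ranges and a difference of -0.23 (SE 0.26, adjusted p = 0.636). Clock was at -0.44 (adjusted p = 0.0877), Cry1 at 0.46 (adjusted p = 0.149), Npas2 at -0.03 (adjusted p = 0.893), Nr1d2 at 0.21 (adjusted p = 0.289), Nfil3 at 0.44 (adjusted p = 0.335), Bhlhe40 at 0.36 (adjusted p = 0.344) and Bhlhe41 at 0.32 (adjusted p = 0.0563), none of which passed. The 3 output genes that were higher (Hlf, Tef and Rora) became 1 without FC2 or without BG1.

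**Figure D3:**
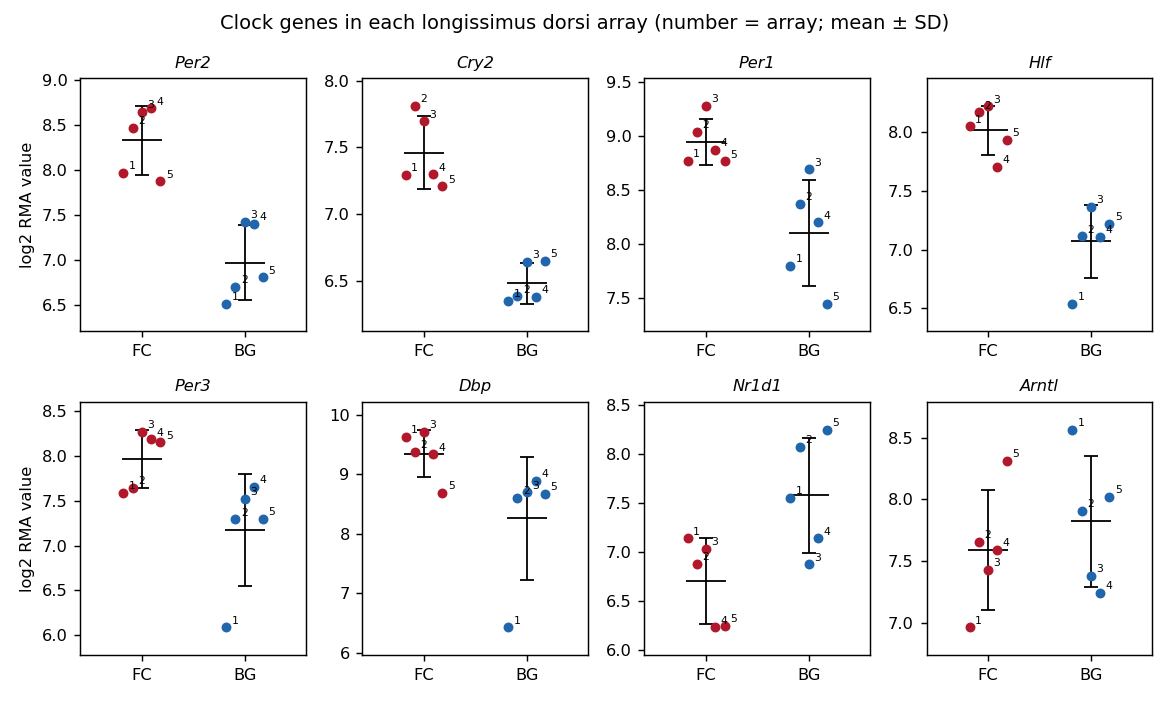
Log2 expression of 8 clock genes in *longissimus dorsi* of 5 FC and 5 BG mice. Dots are arrays with their numbers, and bars are the group mean ± SD. The FC and BG ranges are separate for Per1, Per2, Cry2 and Hlf, and the low Dbp and Per3 values of BG1 (6.43 and 6.09) are visible.

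Promoters of the clock genes were searched for the E-box CACGTG, a palindrome and so the same on both strands, because CLOCK and BMAL1 act through E-boxes. The windows came from RefSeq (GRCm38.p6) and run from 250 bases before to 50 after each annotated start. Other forms of the motif and sites outside the windows were not searched. Of the 19 measured clock genes 16 had a window and 4 of these held the motif, where 8.09% of 27025 genes and 7.15% of 32851 windows did. Of the called genes, 1 of 14 with a window among those higher in FC mice held it (Lncpint), and 0 of 15 among those lower. The motif is in capitals with 30 bases on either side, each on the strand of its gene. They lie at chr11:69098753-69098818 (plus strand) for Per1, chr10:85185079-85185144 (minus) for Cry1, chr6:145865538-145865603 (minus) for Bhlhe41, chr15:81802516-81802581 and chr15:81811246-81811311 (plus) for 2 starts of Tef, and chr6:31218488-31218553 (minus) for Lncpint.
Per1: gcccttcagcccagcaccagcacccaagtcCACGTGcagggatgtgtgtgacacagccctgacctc
Cry1: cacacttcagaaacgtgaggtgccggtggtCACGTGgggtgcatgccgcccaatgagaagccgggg
Bhlhe41: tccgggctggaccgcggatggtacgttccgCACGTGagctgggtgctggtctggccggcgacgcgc
Tef, start 1: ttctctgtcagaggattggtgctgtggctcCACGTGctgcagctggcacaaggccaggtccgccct
Tef, start 2: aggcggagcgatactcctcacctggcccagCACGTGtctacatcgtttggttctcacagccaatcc
Lncpint: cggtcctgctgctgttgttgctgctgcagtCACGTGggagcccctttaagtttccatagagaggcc
Of the 5 genes shown, Per1, Tef and Lncpint were higher in FC mice, and Cry1 and Bhlhe41 did not pass. Per2, Cry2 and Hlf, which were higher too, are not among the genes shown. A match describes these letters only, and binding was not measured.

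The largest increase among the probe sets that passed was in Lncpint, a long non-coding RNA that is induced by p53 in mouse cells. It measured 7.23, 7.58, 7.82, 6.90 and 7.69 in FC1 to FC5, against 5.11, 5.66, 5.37, 5.18 and 5.48 in BG1 to BG5. The lowest FC array was more than 1 above the highest BG array, and the difference was 2.09 (SE 0.29, adjusted p = 0.000924). Chd6, a chromatin remodelling enzyme, measured 8.15, 8.88, 8.25, 8.07 and 7.81 in FC1 to FC5, against 6.71, 7.04, 7.36, 7.01 and 6.53 in BG1 to BG5, a difference of 1.30 (SE 0.19, adjusted p = 0.00113). Nrip1, a corepressor of nuclear receptors that restrains oxidative genes in muscle, measured 10.59, 10.97, 10.44, 9.77 and 9.48 in FC1 to FC5, against 8.92, 8.86, 9.07, 8.71 and 9.58 in BG1 to BG5. BG5 was the BG array that reached into the FC range, and the difference was 1.22 (SE 0.23, adjusted p = 0.00368). Tfcp2l1, a transcription factor known from kidney and from embryonic stem cells, measured 7.64, 8.38, 7.66, 6.91 and 7.50 in FC1 to FC5, against 6.46, 6.29, 7.06, 6.54 and 5.53 in BG1 to BG5, with FC4 inside the BG range and a difference of 1.24 (SE 0.29, adjusted p = 0.011). The zinc finger gene Zfp612 measured 6.54, 6.98, 7.14, 7.10 and 7.01 in FC1 to FC5, against 5.56, 5.75, 6.16, 6.11 and 5.80 in BG1 to BG5, a difference of 1.08 (SE 0.15, adjusted p = 0.000924) between ranges that did not overlap. Ubr4, a large ubiquitin ligase, measured 9.39, 9.79, 9.73, 9.42 and 9.58 in FC1 to FC5, against 8.56, 8.90, 8.58, 8.04 and 8.62 in BG1 to BG5. Its ranges were separate as well, and it differed by 1.04 (SE 0.15, adjusted p = 0.000924). Tenm3, a cell surface teneurin, differed by 1.05 (SE 0.19, adjusted p = 0.00313). Among the probe sets with no gene in the annotation, 1426726_at differed by 1.06 with the smallest adjusted p of the called ones that were higher (4.03e-05), and 1426727_s_at differed by 1.19 (adjusted p = 0.000185).

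Luc7l2, Sfpq and Rbm5, which encode proteins that handle RNA, were called higher, and their probe sets differed in size. Luc7l2, a component of the U1 splicing machinery, measured 8.35, 9.23, 9.54, 9.19 and 9.12 in FC1 to FC5, against 7.51, 8.07, 7.65, 7.78 and 8.40 in BG1 to BG5 on its most changed probe set, a difference of 1.20 (SE 0.20, adjusted p = 0.00208). Its 5 probe sets ranged from 0.20 to 1.20, and 4 of them passed. Sfpq, a nuclear RNA-binding protein of paraspeckles, measured 7.68, 8.01, 8.40, 8.26 and 8.27 in FC1 to FC5, against 6.52, 6.91, 7.10, 6.52 and 7.59 in BG1 to BG5 on 1436898_at, a difference of 1.19 (SE 0.20, adjusted p = 0.002). Its other 4 probe sets lay between -0.06 and 0.21. Rbm5, a regulator of splice site choice, measured 5.42, 5.93, 6.69, 6.53 and 6.79 in FC1 to FC5, against 4.52, 5.14, 5.09, 4.21 and 6.02 in BG1 to BG5, a difference of 1.28 (SE 0.29, adjusted p = 0.00916), and its other probe sets differed by 0.32 to 0.82. The difference in Sfpq was therefore confined to 1 of its 5 probe sets, and which transcripts each detects was not examined. Of the other genes given array by array, 1 of 3 probe sets passed in Tfcp2l1 (0.08 to 1.24) and Tsc22d3 (0.27 to 0.68), 2 of 3 in Tef (0.11 to 0.65) and Tbc1d1 (0.50 to 0.87), and 2 of 5 in Ppargc1a (0.39 to 0.61). In Dnajb1, Gys1, Ulk1, Angptl4 and Pdia6 1 of 2 passed, the other being at 0.62, 0.22, 0.18, -0.11 and -0.20 in that order. In Mef2d, Acvr1b, Rora, Gpd1, Foxo1, Foxo3, Slc2a3, Klf9, Atg4b and Wipi2, given below or above by their brightest probe set, another differed the other way. The lowest lay at -0.17, -0.05, -0.09, -0.16, -0.05, -0.05, -0.17, -0.13, -0.03 and -0.05 in that order. For Mt1, which was lower, a second lay at 0.12, and none of these passed. Over the list of splicing proteins 5 of 38 (13.2%) were higher and 1 lower in FC mice, where 8.07% of all genes and 16.5% of the brighter genes were higher. The lower member was Hnrnpc, a core hnRNP protein, at -0.50 (adjusted p = 0.0052). The count of higher members moved between 0 without FC3 and 11 without BG5 (11.8% of all genes were higher there), with 1 without FC2, BG1, BG2 or BG4 and 2 without BG3, so the count rested on single arrays.

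Other called genes that were higher have roles in cell structure and protein modification. Ogt, the enzyme that attaches the sugar GlcNAc to nuclear and cytosolic proteins, measured 8.51, 8.85, 9.07, 8.59 and 8.69 in FC1 to FC5, against 7.44, 7.83, 7.71, 7.33 and 8.24 in BG1 to BG5, a difference of 1.03 (SE 0.20, adjusted p = 0.00452). Plec encodes plectin, the linker of intermediate filaments to Z-discs and membrane. It measured 8.81, 10.14, 10.48, 9.64 and 9.87 in FC1 to FC5, against 8.36, 8.62, 8.62, 8.50 and 9.26 in BG1 to BG5, a difference of 1.12 (SE 0.24, adjusted p = 0.00657). Akap9, a scaffold of the centrosome and Golgi, differed by 1.11 (SE 0.22, adjusted p = 0.00452), and Napb, which helps to take apart membrane fusion complexes, by 1.02 (SE 0.25, adjusted p = 0.0143). For Ogt every FC array was above every BG array, while for Plec FC1 lay inside the BG range.

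**Figure D4:**
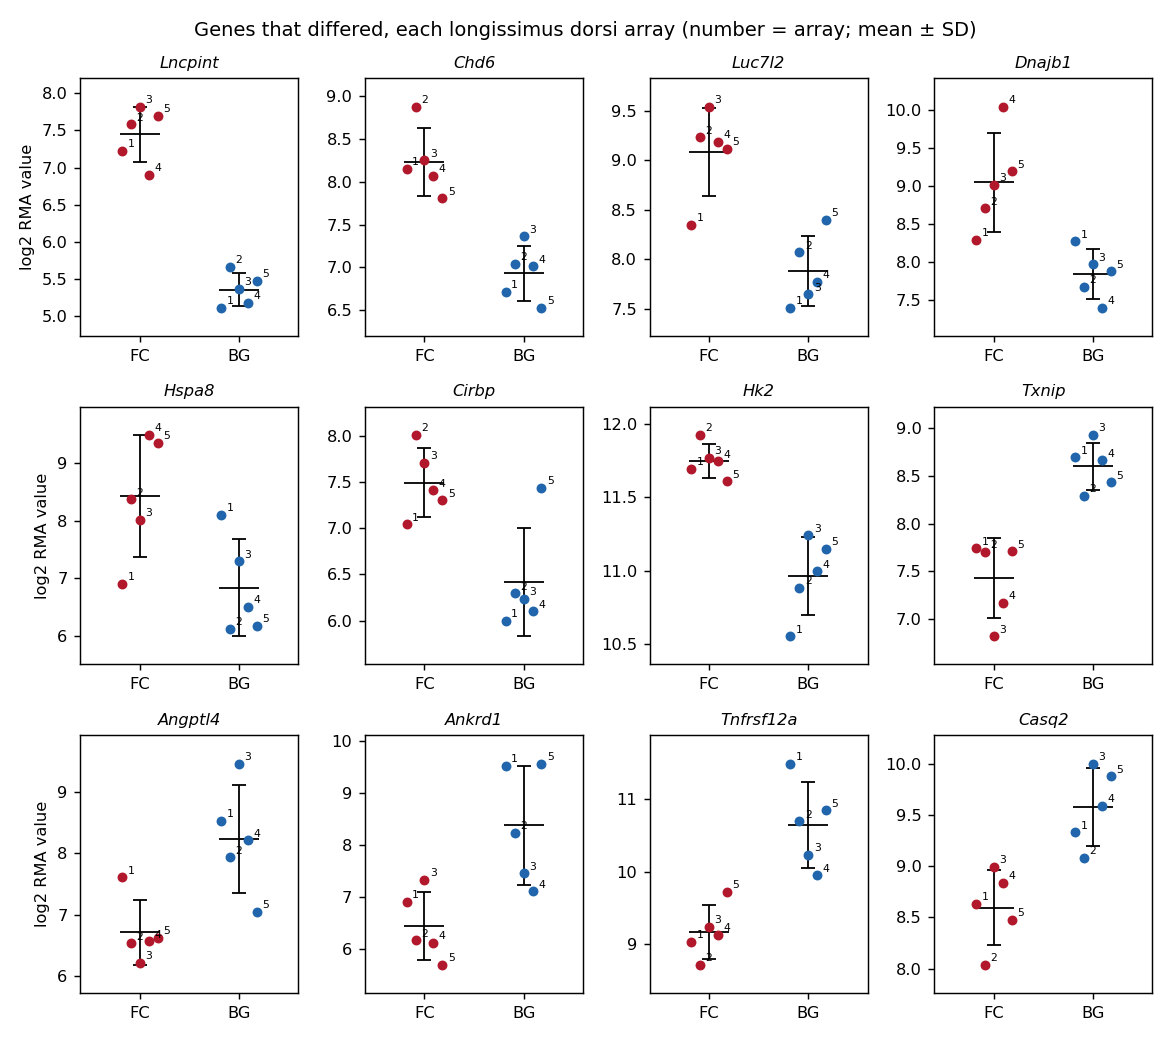
Log2 expression of 12 genes in *longissimus dorsi* of 5 FC and 5 BG mice, with higher genes (Lncpint, Chd6, Luc7l2, Dnajb1, Hspa8, Cirbp, Hk2) and lower genes (Txnip, Angptl4, Ankrd1, Tnfrsf12a, Casq2) in FC mice. Dots are arrays with their numbers, and bars are the group mean ± SD. Lncpint shows the widest gap between the groups, and the FC and BG arrays of Hspa8 overlap.

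Dnajb1 and Hspa8, a co-chaperone and its partner of the cytosolic heat shock machinery, were called higher. Dnajb1 measured 8.29, 8.71, 9.02, 10.05 and 9.20 in FC1 to FC5, against 8.27, 7.67, 7.97, 7.40 and 7.88 in BG1 to BG5. All FC arrays lay above all BG arrays, although FC1 and BG1 were nearly equal, and the difference was 1.22 (SE 0.23, adjusted p = 0.00338). Hspa8 measured 6.90, 8.37, 8.01, 9.49 and 9.35 in FC1 to FC5, against 8.10, 6.12, 7.29, 6.50 and 6.17 in BG1 to BG5 on 1431182_at. Here the ranges overlapped, the difference was 1.59 (SE 0.41, adjusted p = 0.0191), it did not pass without FC5 (adjusted p = 0.05), BG2 (adjusted p = 0.0526) or BG4 (adjusted p = 0.0515), and the other 3 probe sets of Hspa8 lay between -0.06 and 0.03. The stress-inducible Hspa1b measured 9.38, 10.02, 10.71, 12.80 and 12.11 in FC1 to FC5, against 11.33, 9.24, 10.69, 9.96 and 10.33 in BG1 to BG5, and Hspa1a 8.45, 9.41, 9.69, 12.04 and 11.13 in FC1 to FC5, against 10.69, 8.73, 10.21, 9.55 and 9.0 in BG1 to BG5. FC4, FC5 and BG1 were the high arrays of both, and neither passed, at 0.69 (adjusted p = 0.506) and 0.51 (adjusted p = 0.647) in that order. Dnajb1 was the only one of 24 measured heat shock genes that was higher by its brightest probe set, and 0 were lower.

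Cirbp, an RNA-binding protein induced by mild cold, was also higher in FC mice. It measured 7.04, 8.01, 7.71, 7.41 and 7.30 in FC1 to FC5, against 6.0, 6.30, 6.24, 6.10 and 7.44 in BG1 to BG5. All BG arrays but BG5 were below all FC arrays, the difference was 1.08 (SE 0.23, adjusted p = 0.00673), and without BG5 it was 1.34. The genes of heat production on the list did not pass. Ucp1 was at -0.29 (adjusted p = 0.566), Cidea at -0.37 (adjusted p = 0.481), Dio2 at 0.10 (adjusted p = 0.718), Ucp3 at 0.32 (adjusted p = 0.679), Elovl3 at -0.10 (adjusted p = 0.911) and Fgf21 at -0.07 (adjusted p = 0.791). The probe sets of Ucp3 ranged from -0.30 to 0.32 and those of Dio2 from -0.23 to 0.10. Sln, which encodes sarcolipin, a regulator that uncouples the calcium pump, was at -1.34 (adjusted p = 0.0801), with BG5 the high array at 11.86 where the FC arrays had 7.84 to 9.30. A second probe set of Sln was at -0.003. The other member of the list of 9 that was higher was Ppargc1a, and 0 were lower.

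Among 27 measured genes that act in insulin signalling or take up glucose, FC mice had 8 higher and 1 lower. Hk2, the muscle hexokinase that traps glucose in the fibre, measured 11.70, 11.93, 11.77, 11.74 and 11.61 in FC1 to FC5, against 10.55, 10.88, 11.24, 11.0 and 11.15 in BG1 to BG5, a difference of 0.78 (SE 0.12, adjusted p = 0.00125). Gys1, glycogen synthase of muscle, measured 11.34, 11.48, 11.26, 10.97 and 11.25 in FC1 to FC5, against 10.33, 10.71, 10.69, 10.38 and 10.63 in BG1 to BG5, a difference of 0.72 (SE 0.13, adjusted p = 0.00338). In both genes every FC array was above every BG array. Tbc1d1, a Rab regulator that holds glucose transporters inside the cell until insulin or contraction acts, measured 8.51, 8.98, 9.04, 8.03 and 8.51 in FC1 to FC5, against 8.0, 7.78, 7.74, 7.95 and 7.25 in BG1 to BG5, a difference of 0.87 (SE 0.19, adjusted p = 0.00916). The other members that were higher were the insulin receptor substrate Irs2 (0.80, adjusted p = 0.0147), the glucose transporters Slc2a4 (0.31, adjusted p = 0.0298) and Slc2a3 (0.79, adjusted p = 0.0353), the transcription factor Foxo1 (0.65, adjusted p = 0.0367) and the mTORC1 inhibitor Tsc2 (0.43, adjusted p = 0.00943). Txnip, which restrains glucose uptake and is driven by sugar in the cell, was the lower member. It measured 7.74, 7.71, 6.82, 7.17 and 7.71 in FC1 to FC5, against 8.69, 8.29, 8.92, 8.66 and 8.43 in BG1 to BG5, with no overlap, and differed by -1.17 (SE 0.19, adjusted p = 0.00148), while the brighter probe set by which it is counted differed by -0.64 (adjusted p = 0.0231) and left 0 lower members without FC2, FC3, FC4, BG1 or BG4. Slc2a4 did not pass without FC2, FC3, FC4, BG1, BG2 or BG4 (adjusted p from 0.0513 to 0.0715), Slc2a3 without FC2, FC3, FC5, BG1 or BG4 (adjusted p from 0.0551 to 0.109), and Foxo1 without FC2, FC3, BG1, BG2 or BG5 (adjusted p from 0.061 to 0.0997). The count of 8 became 5 without FC2, FC3 or BG1.

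Pfkm, the muscle phosphofructokinase that commits sugar to glycolysis, measured 13.66, 13.77, 13.76, 13.57 and 13.58 in FC1 to FC5, against 13.28, 13.34, 13.22, 13.05 and 13.11 in BG1 to BG5, a small but separate difference of 0.47 (SE 0.09, adjusted p = 0.00402). It was 1 of 4 higher members among 24 glycolysis and glycogen genes (16.7%, beside 8.07% of all genes and 16.5% of the brighter genes), with 0 lower. The others were Pkm (0.41, adjusted p = 0.0285), Pygm (0.32, adjusted p = 0.0459) and Gpd1 (0.72, adjusted p = 0.0246). Pkm was lost without FC1, FC2, FC3, BG1, BG2 or BG4 (adjusted p from 0.0558 to 0.0808), Pygm without FC1, FC2, FC3, BG1, BG2, BG3 or BG4 (adjusted p from 0.0622 to 0.122), and Gpd1 without FC2 (adjusted p = 0.0788), FC3 (adjusted p = 0.0692) or BG2 (adjusted p = 0.0607), so that the 4 became 1 without FC2, FC3 or BG2 and 2 without FC1, BG1 or BG4.

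Fat handling genes were lower where they differed. Angptl4, a secreted inhibitor of lipoprotein lipase induced by fatty acids and fasting, measured 7.61, 6.54, 6.22, 6.56 and 6.63 in FC1 to FC5, against 8.52, 7.93, 9.46, 8.21 and 7.05 in BG1 to BG5. FC1 alone lay inside the BG range, the difference was -1.52 (SE 0.38, adjusted p = 0.0162), and it did not pass without FC3 (adjusted p = 0.051). Plin2, which coats lipid droplets, measured 8.96, 8.44, 8.73, 9.49 and 9.35 in FC1 to FC5, against 9.83, 9.61, 10.02, 9.75 and 9.64 in BG1 to BG5, a difference of -0.77 (SE 0.17, adjusted p = 0.00928) between separate ranges. The fatty acid transporter Cd36 was at -0.71 (adjusted p = 0.0209) and did not pass without FC2 (adjusted p = 0.0684), FC3 (adjusted p = 0.0616) or BG4 (adjusted p = 0.0675). These were the 3 lower members of 27 genes of fatty acid oxidation and PPAR targets, of which 0 were higher. The 3 became 6 without BG5 and 1 without FC3.

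Of 19 regulators of mitochondrial biogenesis and shape 4 were higher in FC mice, and of 59 respiratory chain subunits 0 were. Ppargc1a, the coactivator that drives mitochondrial biogenesis, measured 9.96, 10.01, 9.89, 10.52 and 9.87 in FC1 to FC5, against 9.64, 9.38, 9.68, 9.44 and 9.03 in BG1 to BG5, a difference of 0.61 (SE 0.15, adjusted p = 0.0121) with no overlap. With it, Esrra (0.34, adjusted p = 0.0398), the fusion gene Mfn2 (0.52, adjusted p = 0.00481) and the mitochondrial RNA polymerase Polrmt (0.61, adjusted p = 0.00338) were higher, and 0 of the 19 were lower. A second probe set of Mfn2 was at -0.20 and did not pass. Esrra was lost without FC2, FC3, FC4, BG1, BG2, BG4 or BG5 (adjusted p from 0.0525 to 0.118). Of the 59 subunits of oxidative phosphorylation 1 was lower, and their median difference was -0.11. Without BG5, 12 of the 59 were lower, where 6.02% of all genes were.

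Genes that respond to load and injury were among the largest decreases in FC mice. Ankrd1, a titin-binding stretch response protein, measured 6.91, 6.17, 7.33, 6.13 and 5.70 in FC1 to FC5, against 9.52, 8.23, 7.46, 7.11 and 9.56 in BG1 to BG5. The highest FC array and the lowest BG array overlapped narrowly, the difference was -1.93 (SE 0.53, adjusted p = 0.0271), and it did not pass without FC2 (adjusted p = 0.0646), FC5 (adjusted p = 0.0621) or BG1 (adjusted p = 0.0875). The brighter probe set of Ankrd1, by which the gene is counted, differed by -1.77 (adjusted p = 0.0432) and did not pass without FC2, FC4, FC5, BG1, BG2 or BG5 (adjusted p from 0.0655 to 0.126). Tnfrsf12a, the receptor of the cytokine TWEAK that is induced in damaged or denervated muscle, measured 9.03, 8.72, 9.24, 9.13 and 9.72 in FC1 to FC5, against 11.49, 10.69, 10.23, 9.95 and 10.85 in BG1 to BG5. Every FC array was below every BG array, the difference was -1.47 (SE 0.23, adjusted p = 0.0014), and a second probe set gave -1.40 (adjusted p = 0.00125). Sox4, a transcription factor, was lower at -0.78 (SE 0.15, adjusted p = 0.00387) on 1 of its 6 probe sets (-0.78 to 0.10), and Igfbp5, a secreted binder of insulin-like growth factors, was higher. Igfbp5 measured 12.14, 11.98, 11.76, 11.54 and 11.18 in FC1 to FC5, against 10.77, 10.60, 11.21, 10.72 and 11.24 in BG1 to BG5, a difference of 0.81 (SE 0.18, adjusted p = 0.00911) with a slight overlap, and its second probe set was at -0.01 and did not pass. In all, 3 of 19 load response genes were lower and 1 was higher, and the lower ones were 2 without FC2, FC4, BG1, BG2 or BG5.

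Casq2 and Myoz2, a calcium store protein and a Z-disc protein that are typical of slow and cardiac muscle, were lower in FC mice. Casq2 measured 8.63, 8.04, 8.99, 8.84 and 8.48 in FC1 to FC5, against 9.33, 9.08, 10, 9.59 and 9.88 in BG1 to BG5, a difference of -0.98 (SE 0.21, adjusted p = 0.00798) with every FC array below every BG array. Myoz2 measured 11.32, 10.14, 11.40, 11.29 and 11.55 in FC1 to FC5, against 11.91, 11.95, 12.04, 12.24 and 12.54 in BG1 to BG5, a difference of -0.99 (SE 0.24, adjusted p = 0.0142), also separate. FC2 was its lowest array, without which it was -0.74 (adjusted p = 0.0415). The slow fibre genes Myh7, Tnnc1 and Tnni1 did not pass, with Myh7 at -0.09 (adjusted p = 0.952), Tnnc1 at -0.94 (adjusted p = 0.282) and Tnni1 at -1.18 (adjusted p = 0.137), and FC2 was the lowest array of each. Casq2 was the only one of 27 fibre type genes to pass. Hspb7, a small heat shock protein of heart and muscle, was called lower on 1421289_at at -1.20 (SE 0.34, adjusted p = 0.029). BG5 was its high array at 10.88, without which it differed by -0.89 (adjusted p = 0.0476). Its other 2 probe sets differed by -0.39 and -0.76 and did not pass, and it did not pass without FC2 (adjusted p = 0.0865), FC3 (adjusted p = 0.0692) or BG4 (adjusted p = 0.053).

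The channels that couple the nerve impulse to calcium release were higher in FC mice. Cacna1s, the voltage sensor of the fibre membrane, measured 10.75, 11.10, 11.21, 11.10 and 10.88 in FC1 to FC5, against 10.20, 10.37, 10.48, 10.31 and 10.50 in BG1 to BG5, a difference of 0.63 (SE 0.10, adjusted p = 0.0014). Ryr1, the calcium release channel that it opens, measured 13.26, 13.60, 13.58, 13.42 and 13.42 in FC1 to FC5, against 12.66, 12.90, 12.95, 12.81 and 13.17 in BG1 to BG5, a difference of 0.56 (SE 0.10, adjusted p = 0.003). Both ranges were separate. The chloride channel Clcn1 (0.47, adjusted p = 0.0189), the titin cap Tcap (0.39, adjusted p = 0.0384) and the M-band protein Myom2 (0.42, adjusted p = 0.0484) were higher as well, 5 of 23 genes of Z-disc, M-band and coupling, with Myoz2 the lower one. Clcn1 was lost without FC3 (adjusted p = 0.064) or BG1 (adjusted p = 0.0585), Tcap without FC1, FC2, FC3, FC5, BG1, BG2, BG4 or BG5 (adjusted p from 0.0586 to 0.102), and Myom2 without FC1, FC2, FC3, BG1, BG2, BG3 or BG4 (adjusted p from 0.067 to 0.144). The 5 thus became 2 without FC3 or BG1 and 3 without FC1, FC2, BG2 or BG4. Mef2d, a transcription factor of fibre genes, was higher at 0.58 (adjusted p = 0.0048), and of the neuromuscular list 3 of 18 were higher, the deacetylase Hdac5 (0.60, adjusted p = 0.00916), the agrin receptor Lrp4 (0.55, adjusted p = 0.0107) and acetylcholinesterase Ache (0.80, adjusted p = 0.0371), the last of which was lost without FC2, FC3, FC4, BG2, BG4 or BG5 (adjusted p from 0.0596 to 0.0953). The 3 of 18 are 16.7%, beside 8.07% of all genes and 16.5% of the brighter genes.

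Of 27 chaperones of the endoplasmic reticulum 6 were lower and 1 was higher in FC mice. Manf, a secreted factor induced by misfolded proteins, measured 8.93, 8.59, 8.77, 9.19 and 8.96 in FC1 to FC5, against 9.62, 9.22, 10.17, 9.64 and 9.72 in BG1 to BG5, a difference of -0.78 (SE 0.16, adjusted p = 0.00636). Pdia6, a disulphide isomerase, measured 9.32, 9.30, 9.0, 9.14 and 9.17 in FC1 to FC5, against 9.95, 9.69, 9.84, 9.54 and 9.93 in BG1 to BG5, a difference of -0.60 (SE 0.11, adjusted p = 0.00301) between separate ranges. Pdia3 (-0.64, adjusted p = 0.0119), Hspa5 (-0.46, adjusted p = 0.0247), Hsp90b1 (-0.58, adjusted p = 0.0385) and Pdia4 (-0.41, adjusted p = 0.0264) were the others that were lower, and Syvn1, a ligase that marks misfolded proteins for degradation, was higher at 0.31 (adjusted p = 0.0266). Hspa5 was lost without FC2 (adjusted p = 0.0744), FC3 (adjusted p = 0.0724) or BG3 (adjusted p = 0.0575), Hsp90b1 without FC1, FC2, FC3, FC5, BG1, BG4 or BG5 (adjusted p from 0.0574 to 0.0903), Pdia4 without FC2, FC3, FC5 or BG1 (adjusted p from 0.0573 to 0.0774), and Syvn1 without FC2, FC3, BG1 or BG4 (adjusted p from 0.061 to 0.0841). The 6 became 3 without FC2 or FC3. Of 42 cytosolic ribosomal proteins 9 were lower and 0 higher, 36 had a negative difference, and the 9 ranged from 7 to 11 without single arrays. With the 10 FC and BG arrays fitted alone the 9 became 2, where 0.46% of all genes were lower, and without moderation 15. Rpl22, 1 of the 9, was at -0.41 on the probe set counted, while its other probe set passed as higher at 0.36. Rps19, of the small subunit, measured 11.59, 11.34, 11.63, 11.50 and 11.65 in FC1 to FC5, against 12.02, 12.01, 11.84, 11.86 and 12.05 in BG1 to BG5, a difference of -0.41 (SE 0.09, adjusted p = 0.00595). The other ribosomal differences were small too, as in Rpl11 (-0.39, adjusted p = 0.00575) and Rps15 (-0.34, adjusted p = 0.0092).

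Of 52 translation factors 8 (15.4%) were higher and 2 lower. That share was above the 8.07% of all genes and below the 16.5% of the brighter genes. Eif3b (0.50, adjusted p = 0.0048), Eif4b (0.49, adjusted p = 0.00671), Eif4g3 (0.50, adjusted p = 0.0113) and the elongation factor Eef2 (0.49, adjusted p = 0.0125) were among the higher ones. Eef1e1 (-0.51, adjusted p = 0.0284) and Eif4a1 (-0.37, adjusted p = 0.0195) were lower. Eef1e1 was lost without FC1, FC3, BG1, BG2 or BG4 (adjusted p from 0.0593 to 0.0818), and Eif4a1 without FC2 (adjusted p = 0.0508), FC3 (adjusted p = 0.0654) or BG1 (adjusted p = 0.0508). The 8 became 5 without FC2 or BG1 and 4 without FC3 or BG4. Of 74 mitochondrial ribosomal proteins 1 was higher and 3 were lower, and the 3 became 32 without BG5 (6.02% of all genes were lower there), 1 without BG2 or BG4, and 0 without FC2 or BG1.

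Autophagy genes included one of the most separate differences of the comparison. Ulk1, the kinase that starts autophagy, measured 9.99, 10.17, 10.11, 9.95 and 10.06 in FC1 to FC5, against 9.48, 9.36, 9.41, 9.17 and 9.22 in BG1 to BG5. The ranges lay well apart, and the difference was 0.73 (SE 0.09, adjusted p = 0.000205). Tfeb, the transcription factor of lysosome genes, measured 8.70, 9.16, 9.02, 8.79 and 9.06 in FC1 to FC5, against 8.24, 8.33, 8.30, 8.23 and 8.60 in BG1 to BG5, a difference of 0.61 (SE 0.12, adjusted p = 0.00382). Wipi1 (0.54, adjusted p = 0.00508), Wipi2 (0.42, adjusted p = 0.0086), Atg4b (0.37, adjusted p = 0.0464) and Pik3c3 (0.34, adjusted p = 0.0291) were higher too. The ATG8 family member Gabarapl2 (-0.33, adjusted p = 0.0195) and the lysosomal protease Ctsl (-0.36, adjusted p = 0.0411) were lower. Atg4b was lost without FC1, FC2, FC3, FC4, FC5, BG1, BG2 or BG4 (adjusted p from 0.0547 to 0.138), Pik3c3 without FC2 (adjusted p = 0.0662), FC3 (adjusted p = 0.0692) or BG1 (adjusted p = 0.0633), Gabarapl2 without BG1 (adjusted p = 0.0641) or BG2 (adjusted p = 0.0516), and Ctsl without FC2, FC3, FC5, BG1, BG4 or BG5 (adjusted p from 0.053 to 0.106). The list held 6 higher and 2 lower members of 27.

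On the list of genes that respond to glucocorticoid hormones, 8 of 26 members were higher and 2 lower. The higher ones include Per1 and Foxo1, which are also counted above with the clock and insulin lists. The median difference of the list was 0.31 in *longissimus dorsi* and 0.02 in tongue. Tsc22d3, a classic target that encodes GILZ, measured 11.86, 12.26, 12.13, 12.11 and 11.73 in FC1 to FC5, against 11.16, 10.96, 11.73, 11.69 and 11.14 in BG1 to BG5, a difference of 0.68 (SE 0.16, adjusted p = 0.012). The transcription factors Klf9 (0.46, adjusted p = 0.00375) and Foxo3 (0.44, adjusted p = 0.0132) were higher. The metallothioneins Mt1 (-0.73, adjusted p = 0.0242) and Mt2 (-0.76, adjusted p = 0.0402), which bind metal ions, were lower. Mt1 did not pass without FC1, FC2, FC3, BG1 or BG3 (adjusted p from 0.0573 to 0.0796), and Mt2 not without FC1, FC2, FC3, FC4, BG1 or BG3 (adjusted p from 0.0557 to 0.126). The 8 became 4 without BG1 and 5 without FC2, FC3 or BG2.

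Smaller groups of stress and growth signalling genes held members higher in FC mice. Of 22 ATF4 targets 4 (18.2%) were higher and 0 lower, with the tRNA synthetase Aars at 0.54 (adjusted p = 0.00333). Of 23 NRF2 genes 3 (13%) were higher and 0 lower. Beside these shares, 8.07% of all genes and 16.5% of the brighter genes were higher. Gclm, a subunit of the enzyme that makes glutathione, measured 9.43, 9.79, 9.39, 9.32 and 9.01 in FC1 to FC5, against 9.11, 8.50, 8.70, 8.35 and 8.74 in BG1 to BG5, a difference of 0.71 (SE 0.14, adjusted p = 0.00469). Of 25 genes of TGF-beta and activin signalling 6 were higher and 0 lower, and the 6 became 2 without FC2, BG1, BG3 or BG4 and 3 without FC3. Smad7, the inhibitor of that pathway, measured 8.43, 8.44, 8.62, 8.34 and 8.05 in FC1 to FC5, against 7.95, 7.80, 8.0, 7.79 and 8.01 in BG1 to BG5, a difference of 0.47 (SE 0.09, adjusted p = 0.00348), and the activin receptor Acvr1b was at 0.85 (adjusted p = 0.00833). Sat1, the enzyme that breaks down polyamines, was lower. It measured 8.0, 7.69, 8.22, 8.33 and 8.02 in FC1 to FC5, against 9.16, 8.82, 8.67, 8.76 and 8.85 in BG1 to BG5, a difference of -0.80 (SE 0.14, adjusted p = 0.00248) between separate ranges. Rnf115, a ubiquitin ligase, was called lower as well, measuring 9.61, 9.74, 10.03, 10.44 and 10.35 in FC1 to FC5, against 11.32, 10.84, 10.85, 11.53 and 11.04 in BG1 to BG5, a difference of -1.08 (SE 0.22, adjusted p = 0.0048).

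**Figure D5:**
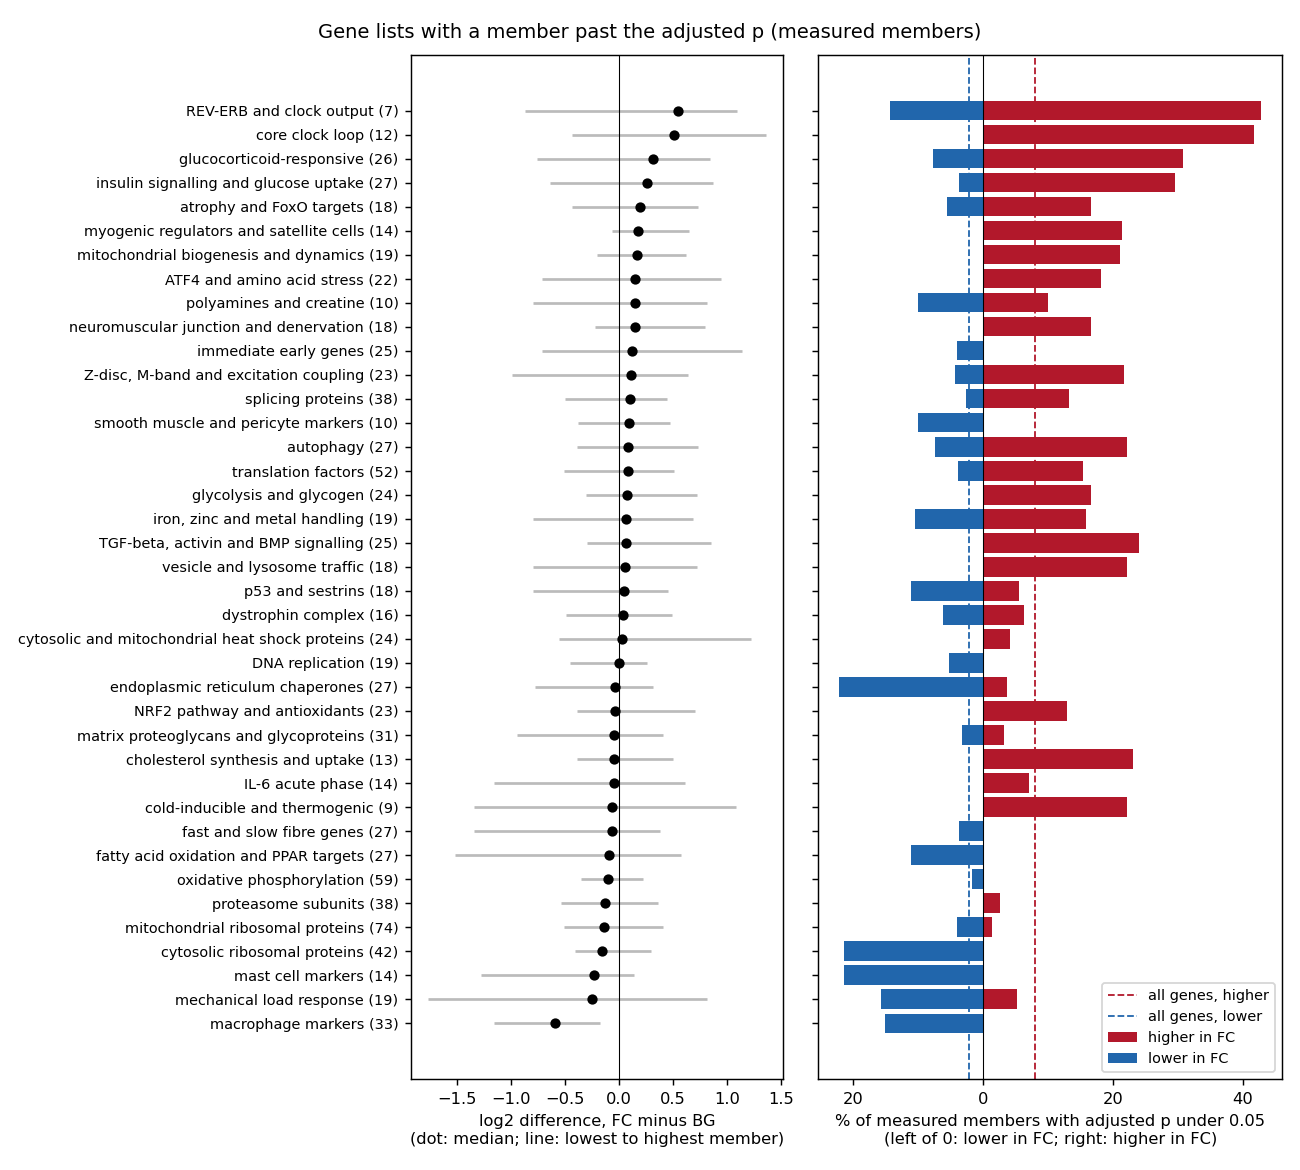
The 39 gene lists with at least 1 member past the adjusted p. The left panel gives the median difference in log2 expression, FC minus BG, with the range of its members, and the right panel the percent of members higher and lower in FC mice, with dashed lines at the 8.07% and 2.19% of all 12393 genes. The core clock list has 5 of 12 members higher, and the ribosomal list 9 of 42 lower. Among the 7083 genes with a brighter probe set, fitted without the dimmer ones, 16.5% were higher and 3.95% lower. The lines do not show these shares.

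Genes of macrophages and mast cells were among those called lower in FC mice, and BG5 was the highest array for each of the 4 genes shown first. Lyz2, Cpa3 and Fcer1a did not pass with only the 15 *longissimus dorsi* arrays or only the 10 FC and BG arrays fitted. Lyz2, the lysozyme of macrophages, measured 10.52, 9.31, 9.81, 9.97 and 9.92 in FC1 to FC5, against 11.22, 11.06, 10.27, 10.55 and 12.13 in BG1 to BG5. BG5 was the highest and FC2 the lowest array. The difference was -1.14 (SE 0.29, adjusted p = 0.0195), it was -0.87 (adjusted p = 0.0288) without BG5, and it did not pass without FC2 (adjusted p = 0.0634) or BG1 (adjusted p = 0.052). The chemokine gene Ccl6 measured 9.0, 7.94, 8.45, 9.05 and 8.95 in FC1 to FC5, against 9.92, 9.73, 9.41, 9.27 and 11.38 in BG1 to BG5, a difference of -1.26 (SE 0.35, adjusted p = 0.0271) that was -0.90 (adjusted p = 0.0401) without BG5 and did not pass without FC2 (adjusted p = 0.0831), FC3 (adjusted p = 0.0692) or BG1 (adjusted p = 0.0576). Cpa3, the carboxypeptidase of mast cell granules, measured 6.90, 6.02, 6.12, 6.86 and 6.72 in FC1 to FC5, against 7.24, 7.80, 6.79, 7.56 and 9.62 in BG1 to BG5. It differed by -1.28 (SE 0.35, adjusted p = 0.0251) and by -0.83 (adjusted p = 0.0194) without BG5, and did not pass without FC2 (adjusted p = 0.0721) or FC3 (adjusted p = 0.0717). Fcer1a, the IgE receptor subunit of mast cells, measured 4.13, 3.73, 3.73, 4.06 and 3.85 in FC1 to FC5, against 4.39, 4.74, 4.27, 4.47 and 7.02 in BG1 to BG5. Its difference was -1.08 (SE 0.33, adjusted p = 0.0448), or -0.57 (adjusted p = 0.00703) without BG5, and it did not pass without FC1, FC2, FC3, FC4, FC5 or BG2 (adjusted p from 0.0512 to 0.0993).

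Over the whole marker lists, all 33 macrophage genes had a negative difference, with a median of -0.60, and 5 passed as lower with 0 higher. The list means ran from 6.79 to 7.55 in FC mice and from 7.12 to 9.08 in BG mice. Without BG5 the median was -0.28, and without both FC2 and BG5 it was -0.20. The 5 became 0 without FC2 or BG1, 1 without FC3 or FC4, 2 without FC5 and 11 without BG3. With only the 15 *longissimus dorsi* arrays or the 10 FC and BG arrays fitted 0 passed, and without moderation 1 did. With array weights or quantile normalization within each muscle 7 passed, and with median centring 8. The defining markers Adgre1 (-0.77, adjusted p = 0.076), Csf1r (-0.46, adjusted p = 0.343), Cd68 (-0.37, adjusted p = 0.566) and Mrc1 (-1.13, adjusted p = 0.0615) did not pass. Of 14 mast cell genes 3 were lower and 0 higher, with list means from 4.96 to 5.22 in FC mice and from 5.19 to 6.16 in BG mice. The 3 became 0 without FC2 or FC3. They also became 0 with the 15 or the 10 arrays fitted alone and 1 without moderation, and stayed 3 with array weights or median centring. Whether the amount of these cells took part in the other differences was not tested. The 5 were Lyz2, Ms4a6d, Ms4a7, Cd53 and the chemokine receptor Ccr2. Ms4a6d (-1.14, adjusted p = 0.0491) was lost without FC1, FC2, FC3, FC4, FC5 or BG1 (adjusted p from 0.0546 to 0.117), Ms4a7 (-1.02, adjusted p = 0.038) without FC2, FC3, FC4, FC5 or BG1 (adjusted p from 0.0501 to 0.0857), Cd53 (-1.16, adjusted p = 0.0319) without FC2, FC3, FC4 or BG1 (adjusted p from 0.0538 to 0.0862), and Ccr2 (-1.03, adjusted p = 0.0412) without FC2, FC3, FC4, FC5, BG1 or BG4 (adjusted p from 0.0567 to 0.0882). Without BG5 they passed at smaller differences, -0.65 for Ms4a6d, -0.59 for Ms4a7, -0.72 for Cd53 and -0.62 for Ccr2. Tfrc, the transferrin receptor that imports iron, ran against this pattern of arrays. It measured 5.47, 4.96, 4.52, 4.79 and 4.42 in FC1 to FC5, against 6.42, 6.55, 6.14, 6.49 and 4.97 in BG1 to BG5 on 1422967_a_at, where BG5 was the lowest BG array, a difference of -1.28 (SE 0.25, adjusted p = 0.00392) that was -1.57 without BG5, and 2 of its 3 probe sets passed (-1.28 to -0.32).

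No member passed in 13 lists. These were the lists of collagens, tendon, fibroblasts, lymphocytes and neutrophils, antigen presentation, interferon response, endothelium, white adipocytes, brown adipocytes, Schwann cells, red blood cells, epidermis and mitosis. Tendon genes had a median of 0.59 without a member passing, and this median was 0.19 without FC1, 0.12 without FC3, 0.30 without BG3, 1.02 without BG1, and 1.0 and 1.05 without FC4 and FC5. Chad, a cartilage and tendon matrix protein, shows the spread behind this, at 10.36, 7.92, 10.07, 5.54 and 5.71 in FC1 to FC5, against 8.15, 6.21, 5.65, 5.97 and 8.27 in BG1 to BG5. FC1, FC3, FC2, BG1 and BG5 were its high arrays.

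The tongue of FC and BG mice gave the same contrast in a different muscle, with 2 and 3 arrays. Which mouse each array came from is not given in the sources used here, so tongue cannot be taken as independent of *longissimus dorsi*. Of the 46 called probe sets, 44 had the same sign in tongue. There 13 passed with that sign and 0 with the other, and 9.45% of all probe sets passed in tongue in either direction. How many of all probe sets had the same sign in both muscles was not counted, so the 44 have no background beside them. Their median difference in tongue was 0.94 for those higher and -0.61 for those lower in *longissimus dorsi*. For Per2 the tongue difference was 1.39 (adjusted p = 0.00552), for Lncpint 1.62 (adjusted p = 0.0173) and for Txnip -1.65 (adjusted p = 0.00103). For Dnajb1 it was 0.02 (adjusted p = 0.983) and for Cirbp 0.01 (adjusted p = 0.996). The contrast itself differed between the muscles in 68 probe sets (0.301%), and none of the 46 was among them, the smallest adjusted p of that difference being 0.0985. The median SE of the called probe sets was 0.242 in *longissimus dorsi* and 0.349 in tongue, so a difference between muscles had to be large to pass.

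Beside the ground groups, the flown mice lay on no single side. Of the 24 probe sets called higher in FC mice, the BF mean was nearer to the BG mean in 15 and nearer to the FC mean in 9, and of the 22 called lower it was nearer to each in 11. In BF mice Per2 averaged 7.0, within the BG range, and Lncpint averaged 5.88, just above it. Dbp averaged 7.52 in BF mice, below all FC arrays and all BG arrays but BG1. Cirbp averaged 7.81, Cry2 7.31 and Tbc1d1 9.02 in BF mice, each within the FC range. Txnip averaged 9.37 in BF mice, above every FC and BG array, while Ankrd1 (8.73) and Tnfrsf12a (10.24) were within the BG range. The comparisons of BF with FC and of BF with BG share these FC and BG arrays, so the positions are given as a description.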

How the data were processed

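RNA was measured on Affymetrix Mouse Genome arrays, 1 per muscle sample. The values the authors deposited are on a log2 scale, 1 per probe set and array, from 2.24 to 14.5. They were made by RMA (background correction, then quantile normalization and median polish over arrays) in Partek software and used as given. RMA draws differences of dim probe sets toward 0. The scanned intensities were not used. Of 22626 probe sets 20380 name 1 gene, 691 several and 1555 none, and only the first kind is named. All 23 arrays were fitted in 1 model of 6 groups with 17 residual degrees of freedom (limma 3.58.1, R 4.3.3, eBayes prior of 5.12 degrees of freedom). Called probe sets had an adjusted p under 0.05 and changed more than 2-fold, the study's thresholds. The sources do not say more of the replicates than that each is a mouse.

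Genes named are the 15 largest increases and 15 largest decreases among called probe sets of 1 gene, up to 4 members of each of 52 lists by adjusted p, all clock and cold list members and cell type markers. Other genes and further list members that passed were named after their values were seen. The members and lists were chosen with earlier results of these data known. The number of arrays limits the precision. In simulated data of these 22626 probe sets, 56% of those changed by 0.5 and 92% of those raised by 1 passed. Of those lowered by 1 or raised by 2, 100% passed, and 1.14% of those that passed were unchanged. The simulated noise was independent between probe sets and equal in spread over the groups, and 50 probe sets were changed per size. Deviations shared across an array, as in BG5, were not simulated, so these shares may not hold for the real arrays. Alternatives were other sets of arrays, no moderation, trend and robust moderation, the brighter probe sets, array weights, quantile normalization repeated within each muscle, centring on array medians, 1 probe set per gene, replicate numbers as a block and each array left out. Leaving out FC2 and BG5 together was added after seeing the data.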

Additional observations from a re-analysis of the deposited data

Results flagged for a closer look

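Of 144 groups of 5 arrays looked at, 1 per gene shown or marker list and housing, 15 held an array whose gap to its nearest neighbour took up more than 0.71 of the group's range, where chance gives about 5% of groups. BG5 was that array in 6 of them, FC2 in 4 and BG1 in 2. BG5 was high for Cirbp (7.44, other BG arrays 6.0 to 6.30), Hspb7 (10.88, others 9.10 to 9.51), Tfeb (8.60, others 8.23 to 8.33), Fcer1a (7.02, others 4.27 to 4.74) and the mean of the macrophage markers (9.08, others 7.12 to 7.65), and low for Tfrc (4.97, others 6.14 to 6.55). FC2 was low for Myoz2 (10.14, other FC arrays 11.29 to 11.55), Myh7 (9.07, others 11.65 to 12.31), Tnnc1 (9.21, others 11.71 to 12.62) and the mean of the fibre type genes (11.34, others 12.08 to 12.22). BG1 was low for Per3 (6.09, others 7.29 to 7.65) and Dbp (6.43, others 8.60 to 8.90). The remaining arrays were FC1 for Zfp612 (6.54, others 6.98 to 7.14), FC4 for Ppargc1a (10.52, others 9.87 to 10.01) and BG3 for Rpl11 (11.94, others 12.15 to 12.23).

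In 7 probe sets that passed in *longissimus dorsi*, the FC minus BG difference itself differed between *longissimus dorsi* and tongue (2 FC and 3 BG arrays of tongue), with limma adjusted p from 0.0047 for Ahcyl2 to 0.0435 for Esrp2. Ahcyl2 was higher in FC mice in both muscles, by less in *longissimus dorsi* (difference between muscles -0.97), as was the unnamed probe set 1430195_at (-1.14). Ccng2 (0.96), Lrrc20 (0.77) and Ccnq (0.82) were higher in FC mice in *longissimus dorsi* and had a negative difference in tongue. Krt80 (-1.15) and Esrp2 (-0.77) were lower in *longissimus dorsi* and had a positive difference in tongue.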

How the results depend on the processing

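The 46 called probe sets became 27 with the 10 FC and BG arrays fitted alone, 22 with 1 probe set per gene, 33 to 47 under the other alternatives planned, 31 to 63 without single arrays, and 59 without both FC2 and BG5. The 2025 past the adjusted p became 558 with the 10 arrays alone, 1004 to 3661 without single arrays, and 2857 without both FC2 and BG5. The 1537 higher and 488 lower among them became 1109 and 593 with quantile normalization within each muscle, and 1244 and 582 with median centring. By direction, the 24 higher became 10 with 1 probe set per gene, and 44 at most without single arrays. The 22 lower became 7 with the 10 arrays alone, 9 with the 15 *longissimus dorsi* arrays or without moderation, 12 with 1 probe set per gene, 14 with array weights, and 14 to 38 without single arrays. The 68 probe sets whose contrast differed between the muscles became 40 without moderation, 25 with the brighter probe sets, 446 with array weights, 26 with 1 probe set per gene, and 7 to 99 without single arrays, with 7 without FC tongue array 1. The median of all probe sets moved by less than 0.1 under each setting. Of 161 named or called probe sets that passed, 84 passed without each single array, as did 28 of the 46 called. None of the named results that passed in the main fit changed direction under an alternative. Direction was not followed for those that did not pass. Of 3693 comparisons over the alternatives 3016 kept their side of the threshold, with 659 no longer past it and 18 newly past it. The causes of these shifts were not tested. Deviations of same-numbered FC and BG arrays correlated at 0.17, 0.10, -0.15, 0.45 and -0.22, and so few values cannot decide whether replicate numbers pair the arrays. With these numbers as a replicate block, 41 were called and 1796 passed the adjusted p, 6 of the 46 called and 31 of the 161 named were lost, and 1 of the 5 FC arrays correlated best with the BG array of its own number. Small differences in dim probe sets are limited by signal near background.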
